A study of Homo sapiens with 12 samples.

Results

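The antioxidant genes of the NRF2 pathway were followed across low and high glucose, with and without valproic acid (VPA), in HepG2 cells. The 10 genes, taken by symbol from the deposited table of 16389 genes, were NFE2L2, NQO1, HMOX1, GCLC, GCLM, TXNRD1, SRXN1, SLC7A11, AKR1B10 and AKR1C1, and all 10 were present in the table. HepG2, an established cell line from a human liver cancer, gave 12 poly(A)-selected RNA libraries, 3 per group. LG cells were kept in normoglycaemic medium with 5.5 mM glucose and HG cells in hyperglycaemic medium with 20 mM glucose, both for 48 h. LGV and HGV cells had the same media and then received 1 mM VPA, an inhibitor of histone deacetylases, for a further 12 h. All groups shared the cell line and its basal medium with serum, and no group carried a genetic change made for the study. The labels speak of triplicates and do not say whether these were separate cultures, so the p-values measure only the spread between these libraries. When the untreated cells were taken, at the start or at the end of those 12 h, is not given in the sources used here, so VPA and a longer time in culture cannot be told apart.

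NRF2, the protein of NFE2L2, is a transcription factor that KEAP1 binds and passes to a ubiquitin ligase, so that it does not accumulate in resting cells. Electrophiles and oxidants modify KEAP1, after which NRF2 pairs with a small MAF protein and binds antioxidant response elements near genes for glutathione synthesis, thioredoxin recycling and the reduction of quinones and carbonyls. BACH1 competes for the same elements, above all at HMOX1, and in liver the pathway is known for its part in handling drugs and reactive metabolites. RNA counts measure none of the protein steps.

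The letters TGACNNNGC, the core of an antioxidant response element, are shown for the members that carry them because they are the sequence through which NRF2 is known to act. Both strands of the 1000 bases before the canonical transcript start were read from GRCh37. A match was found for 5 of the 10 members, for 33.6% of the 13087 genes of the table with such a window and for 32.5% of 19815 protein-coding genes, so the letters by themselves are common. Each match is printed 5′ to 3′ with 10 bases on either side and its 9 letters in capitals. Positions and overlaps with annotated genes are those of the whole printed stretch. The NQO1 match lay at chr16:69760900-69760928 on the minus strand, 455 bases before the start, in an exon of the divergent transcript NQO1-DT, and its first 7 letters are also the AP-1 sequence TGACTCA. For GCLC it lay at chr6:53410751-53410779 on the plus strand, 870 bases before the canonical start and in an intron of longer GCLC transcripts. The GCLM match, at chr1:94375002-94375030 on the plus strand and 34 bases before the canonical start, reached into an exon of another GCLM transcript. Those of TXNRD1 at chr12:104609448-104609476 (plus strand, 99 bases before the start) and AKR1B10 at chr7:134211451-134211479 (plus strand, 858 bases before the start) lay in no annotated gene.
NQO1: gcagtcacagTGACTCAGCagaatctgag
GCLC: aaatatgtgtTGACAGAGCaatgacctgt
GCLM: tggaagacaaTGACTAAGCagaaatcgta
TXNRD1: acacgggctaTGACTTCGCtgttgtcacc
AKR1B10: acagatgctgTGACGTGGCcctggcctgt
For NFE2L2, HMOX1, SRXN1, SLC7A11 and AKR1C1 these letters are not in the window searched, which says nothing of elements further away. The members with a match and those without it both held genes that changed and genes that did not.

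Libraries held between 29798442 and 45572694 counted reads. Levels are given as CPM, counts scaled to library size with TMM factors, where 3 reads, the floor used for counting error, stood for 0.0713 to 0.112 CPM. All 9 hepatocyte markers fixed for the check (ALB, APOA1, APOB, TTR, SERPINA1, FGB, TF, HNF4A and AFP) were in the table, with a lowest group mean of 139 CPM. Their summed level was 52004 to 58704 CPM in LG, 52991 to 60875 in HG, 40050 to 40975 in LGV and 46988 to 61620 in HGV, lowest in LGV, and its part in the results was not tested. Of 12 markers of blood, vessel and stromal cells 5 were in the table, and of these LYZ stood at 908 to 1545 CPM and the other 4 (COL1A1, VWF, CDH5 and HBA1) at 3.85 CPM or less in every library. Groups were compared with edgeR's quasi-likelihood test, and a gene was called changed at a Benjamini-Hochberg adjusted p (FDR) of 0.05 or less over all genes tested. Fold changes are on the log2 scale, with their standard error (SE), and values after ± are SD over n = 3 libraries.

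To see how hyperglycaemia touched the pathway, HG was compared with LG. As in any bulk measurement, fewer cells with a transcript and less of it per cell cannot be told apart. AKR1B10, AKR1C1, GCLC, SRXN1 and TXNRD1 fell and SLC7A11 rose, so that 5 of 10 members were called lower, where 12.7% of the 15452 genes tested were, and 1 was called higher, where 12.0% were. The median member differed by a log2 fold change of -0.42, and the median of all genes tested by 0.01. The split of calls over all genes moved with the scaling, from 1854 higher and 1959 lower to 2458 and 1366 with upper-quartile factors and to 2171 and 1297 with library size alone. AKR1B10, AKR1C1, GCLC and TXNRD1 were called lower under both of these scalings, and SRXN1 was not.

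The same glucose contrast in the presence of VPA, HGV against LGV, rests on 6 other libraries. NQO1, GCLC, TXNRD1, AKR1B10 and AKR1C1 fell and SLC7A11 rose in HGV. The 5 members called lower stood against 19.5% of 16208 genes, and the 1 called higher against 21.2%. The members' median was -0.57 and that of all genes 0.01. With upper-quartile factors the calls over all genes were 4126 higher and 2375 lower, in place of 3444 and 3160. GCLC, TXNRD1, AKR1B10 and AKR1C1 were called lower in both glucose contrasts, and SLC7A11 was called higher in both. The share of all genes called in both contrasts was not counted, so this overlap is not a result about the members as a set.

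VPA was assessed in each glucose condition against the untreated cells of that condition, which also serve in the glucose contrasts. In LGV against LG, AKR1B10 and AKR1C1 fell and TXNRD1 rose. The count of 2 members called lower is set against 19.9% of 15944 genes and that of 1 called higher against 21.7%, and the medians were -0.14 for the members and -0.01 for all genes. In HGV against HG, AKR1B10, AKR1C1 and NQO1 fell, and TXNRD1 and SRXN1 rose. Here 3 members were called lower, where 20.2% of 16188 genes were, and 2 were called higher, where 25.8% were, with medians of -0.03 for the members and 0.02 for all genes. With library size alone the calls over all genes became 4500 higher and 1958 lower in LGV against LG, from 3461 and 3177, and 5182 and 2424 in HGV against HG, from 4184 and 3272, and the median of all genes moved up by 0.16 and 0.12.

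**Figure D1:**
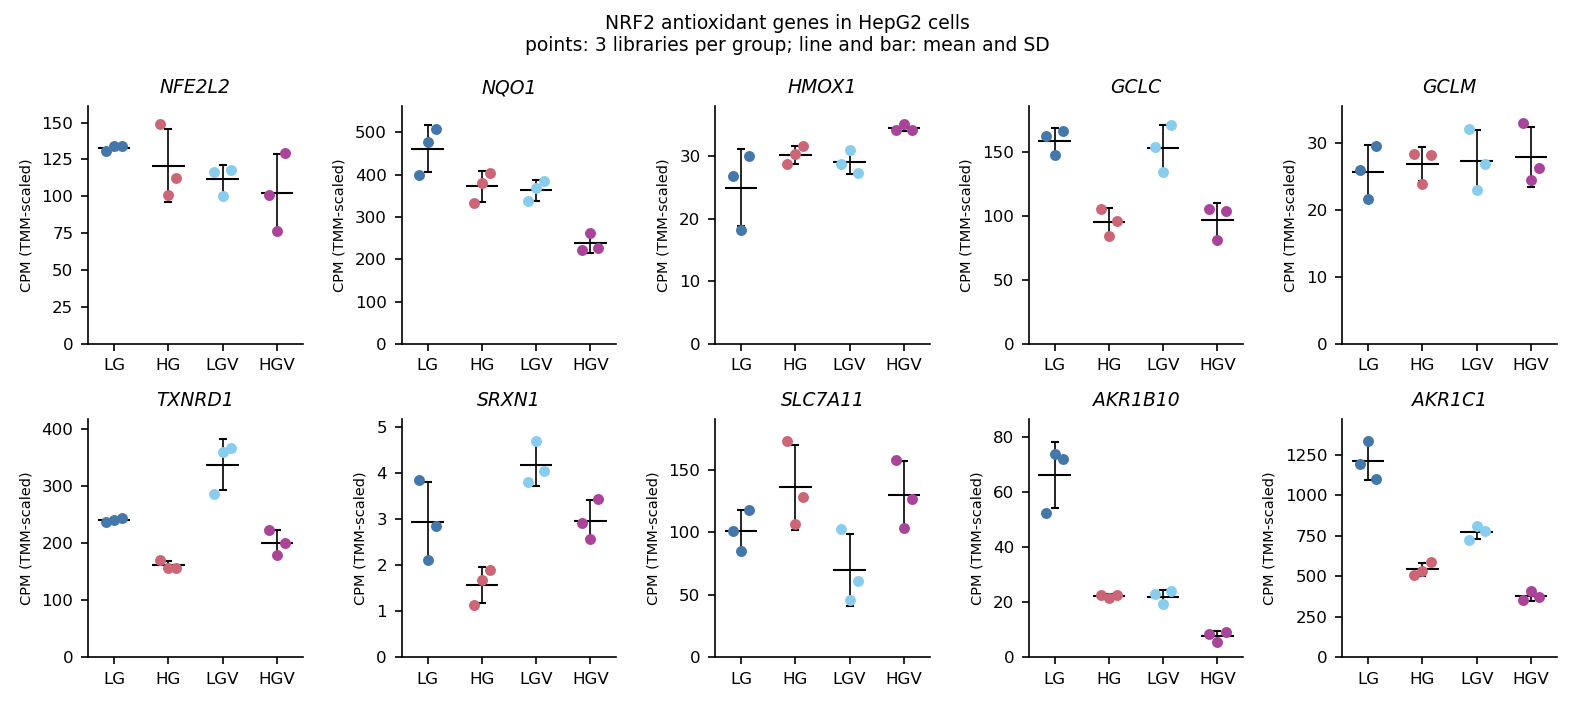
Level of each of the 10 genes in CPM (y axis, linear, from 0) in the 3 libraries of LG, HG, LGV and HGV (x axis); points are libraries, the line is the mean and the bar the SD. AKR1B10 runs from a mean of 66.1 CPM in LG to 7.64 CPM in HGV, while the 4 GCLM means lie between 25.7 and 27.9 CPM.

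Among the enzymes that reduce carbonyls and quinones, AKR1B10, an aldo-keto reductase of retinal and reactive aldehydes, had the largest fold change of the members in each of the 4 pairwise comparisons. It is annotated at chr7:134212319-134226164 on GRCh37 (plus strand). The 3 LG libraries had 52.3, 74.0 and 71.9 CPM, the HG libraries 22.7, 21.4 and 22.7, the LGV libraries 23.0, 19.4 and 23.9 and the HGV libraries 8.34, 5.52 and 9.06. LG stood above every other library, HG and LGV overlapped, and HGV stood below all of them. The group means were 66.1 ± 12.0 CPM in LG, 22.3 ± 0.762 in HG, 22.1 ± 2.43 in LGV and 7.64 ± 1.87 in HGV. AKR1B10 fell 2.92-fold with glucose without VPA, a log2 fold change of -1.55 (SE 0.15, FDR 1.05e-06), and 2.94-fold with VPA, a log2 fold change of -1.56 (SE 0.17, FDR 3.78e-06). With VPA it fell 2.97-fold in LG, a log2 fold change of -1.57 (SE 0.15, FDR 1.56e-06), and 2.93-fold in HG, a log2 fold change of -1.55 (SE 0.17, FDR 1.26e-05). All 4 log2 fold changes thus lay between -1.57 and -1.55, and the difference between the glucose responses with and without VPA was 0.03 with a 95% interval of -0.46 to 0.52 (FDR 0.983).

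AKR1C1, an aldo-keto reductase that inactivates progesterone, was also highest in LG and lowest in HGV, with LGV above HG. The gene spans chr10:5005445-5025475 (plus strand). LG libraries had 1194, 1339 and 1102 CPM, LGV libraries 725, 809 and 780.0, HG libraries 509.9, 532 and 588 and HGV libraries 352, 410.2 and 372. No 2 of the groups overlapped, and the mean went from 1212 ± 119 CPM in LG to 378 ± 29.5 CPM in HGV. The fall with glucose was 2.20-fold without VPA (log2 fold change -1.13, SE 0.12, FDR 4.66e-06) and 2.07-fold with it (log2 fold change -1.05, SE 0.13, FDR 1.12e-05). The fall with VPA was 1.56-fold in LG (FDR 0.00102) and 1.44-fold in HG (FDR 0.00154). The interaction was 0.13, with a 95% interval of -0.21 to 0.47.

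Both reductases have close relatives whose reads can be shared. Of the 50-base windows of the AKR1C1 transcript 22.7% occur in another gene (22.3% in AKR1C2), and of those of AKR1B10 17.3% do (11.3% in AKR1B15). With the counts of AKR1C1 and AKR1C2 added, an alternative chosen after seeing the data, the log2 fold changes were -1.11 for HG against LG, -0.98 for HGV against LGV, -0.64 for LGV against LG and -0.49 for HGV against HG, and with AKR1B10 and AKR1B15 added they were -1.57, -1.55, -1.57 and -1.53, all called. In both sums the member had the higher level in every group, so the sum mostly followed it and cannot show how shared reads were assigned. AKR1C2, which acts on steroids and bile acids, has 47.3% of its 50-base windows in another gene (45.7% in AKR1C1), so how its reads were assigned is uncertain. It fell with glucose from 226 ± 13.1 to 112 ± 5.97 CPM (2.00-fold, FDR 9.93e-06) and with VPA to 142 ± 6.19 CPM in LGV (log2 fold change -0.66, FDR 2.82e-04). Its fall in HGV against HG, with a log2 fold change of -0.32 (FDR 0.0247), was not called with upper-quartile factors (-0.26, FDR 0.0655), with library size alone (-0.20, FDR 0.118), without HG replicate 3 (-0.28, FDR 0.116) or without HGV replicate 1 (-0.24, FDR 0.109).

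AKR1C3, which forms testosterone and prostaglandins, had 367 ± 29.0 CPM in LG and 368 ± 26.8 in HG, a log2 fold change of 0.03 with a 95% interval of -0.22 to 0.28 (FDR 0.883), and fell with VPA to 245 ± 14.8 CPM in LGV and 244 ± 21.9 in HGV (log2 fold changes -0.57 and -0.60, FDR 0.00144 and 6.12e-04). AKR1B1, the aldose reductase that turns glucose into sorbitol, fell with glucose from 93.5 ± 6.28 to 66.0 ± 5.27 CPM (log2 fold change -0.48, FDR 0.00925) and rose with VPA to 196 ± 28.1 CPM in LGV and 119 ± 19.1 in HGV (log2 fold changes 1.08 and 0.85, FDR 1.17e-05 and 1.35e-04). Without LG replicate 1 its log2 fold change in HG against LG was -0.43 (FDR 0.0507). AKR1B15, named after its values were seen, had 2.28 ± 0.223 CPM in LG, 0.774 ± 0.211 in LGV, 0.477 ± 0.182 in HG and 0.298 ± 0.145 in HGV. It fell 4.68-fold in HG against LG (log2 fold change -2.23, FDR 5.87e-05), and also in LGV against LG (-1.54, FDR 5.11e-04) and in HGV against LGV (-1.43, FDR 0.0126), with -0.71 (FDR 0.225) in HGV against HG. VPA was thus followed by less AKR1B10 and more AKR1B1 RNA in both glucose conditions.

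**Figure D2:**
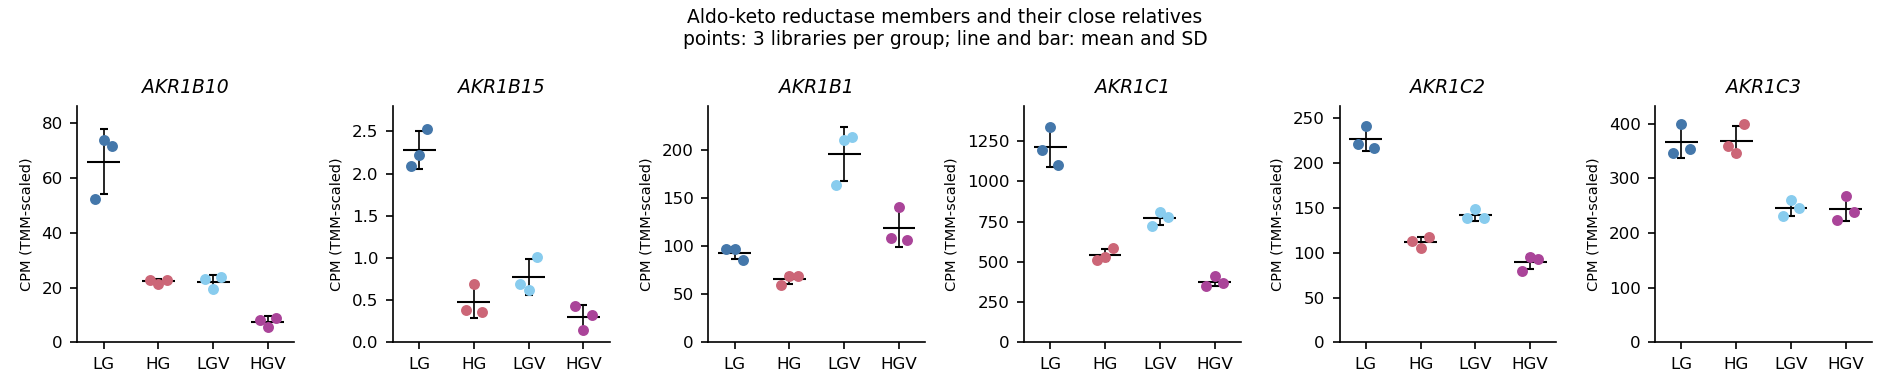
Level in CPM (y axis, linear, from 0) of AKR1B10, AKR1C1 and 4 relatives in the libraries of each group (x axis); points are libraries, the line the mean, the bar the SD. AKR1B10 and AKR1C1 are lowest in HGV, at means of 7.64 and 378 CPM, AKR1B1 is highest in LGV at 196 CPM, and AKR1C3 differs with VPA and lies at 367 and 368 CPM in LG and HG.

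NQO1, the quinone reductase most often used as a readout of NRF2 activity (chr16:69740899-69760571, minus strand), was lowest in HGV. Its levels were 399.6, 476 and 507 CPM in LG, 332, 381 and 403 in HG, 336, 368 and 385 in LGV and 223, 263 and 227 in HGV. Every HGV library was below every other library, whereas the highest HG library stood just above the lowest LG library. NQO1 fell 1.57-fold in HGV against HG, from 372 ± 36.3 to 237 ± 22.0 CPM, a log2 fold change of -0.65 (SE 0.11, FDR 4.70e-04), and 1.55-fold in HGV against LGV, a log2 fold change of -0.63 (SE 0.13, FDR 7.28e-04). For HG against LG its log2 fold change was -0.29 (SE 0.13, FDR 0.115) and for LGV against LG -0.33 (SE 0.13, FDR 0.0517). The latter was called without LG replicate 1, at -0.43 (FDR 0.0289). That the response to either factor differed with the other was not shown, since the interaction was -0.31 with a 95% interval of -0.67 to 0.05 (FDR 0.528).

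For glutathione synthesis, the catalytic and the modifier subunit of glutamate-cysteine ligase, GCLC and GCLM, had different profiles. GCLC (chr6:53362139-53481768, minus strand) had 162, 148 and 166 CPM in LG and 154, 134 and 171 in LGV, against 106, 84.3 and 96.2 in HG and 106, 81.0 and 104 in HGV. Libraries in 20 mM glucose all lay below those in 5.5 mM glucose, and within a glucose level those with and without VPA overlapped. GCLC fell 1.64-fold with glucose without VPA, from 159 ± 9.76 to 95.4 ± 10.8 CPM, a log2 fold change of -0.72 (SE 0.12, FDR 3.87e-04), and 1.60-fold with VPA, a log2 fold change of -0.68 (SE 0.13, FDR 6.82e-04). The log2 fold change with VPA was -0.04 in LG, with a 95% interval of -0.30 to 0.22, and 0.02 in HG, with an interval of -0.26 to 0.30. GCLM (chr1:94350755-94375012, minus strand) had overlapping libraries in all groups, from 21.6 to 33.0 CPM, and group means of 25.7 ± 3.98 CPM in LG, 26.8 ± 2.53 in HG, 27.3 ± 4.55 in LGV and 27.9 ± 4.49 in HGV. Its log2 fold change in HG against LG was 0.08 with a 95% interval of -0.24 to 0.40, and in HGV against LGV 0.01 with an interval of -0.30 to 0.32. A fall in GCLM of the size estimated for GCLC lay outside both of these intervals.

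SLC7A11, the light chain of the cystine/glutamate antiporter that brings in cystine for glutathione and also a target of ATF4, was the member called higher with glucose. The gene lies at chr4:139085251-139163503 (minus strand). LG libraries had 101, 85.4 and 118 CPM, HG 173, 107 and 128, LGV 103, 46.3 and 61.2 and HGV 158, 104 and 127. HG replicate 1 was the highest and LG and HG overlapped, and LGV replicates 2 and 3 were the lowest. HG against LG gave a log2 fold change of 0.44 (SE 0.16, FDR 0.0443), and this call was lost without LG replicate 1 (0.46, FDR 0.132), LG replicate 2 (0.36, FDR 0.150), HG replicate 1 (0.25, FDR 0.261) or HG replicate 3 (0.52, FDR 0.0686). In HGV against LGV it rose 1.83-fold, from 70.0 ± 29.1 to 129.7 ± 27.5 CPM, a log2 fold change of 0.87 (SE 0.21, FDR 0.00328), though the FDR was 0.0603 in DESeq2's Wald test. LGV against LG gave -0.52 (FDR 0.0724), which became -0.90 (FDR 8.34e-04) without LGV replicate 1 and -0.64 (FDR 0.0313) without LG replicate 2. Its heavy chain SLC3A2, which carries the antiporter to the membrane and also serves other transporters, went the other way with glucose, with 1415, 1393 and 936 CPM in LG and 336, 388 and 406 in HG, a log2 fold change of -1.70 (SE 0.15, FDR 4.54e-07). In HGV against LGV SLC3A2 fell with a log2 fold change of -1.20 (FDR 5.63e-06), and in LGV against LG with one of -0.72 (FDR 0.00218).

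TXNRD1, the cytosolic thioredoxin reductase (chr12:104609557-104744085, plus strand), differed in opposite directions with glucose and with VPA. Its libraries had 236, 240.1 and 244 CPM in LG, 171, 156 and 157 in HG, 285, 358 and 367 in LGV and 222, 179 and 200.2 in HGV. The 4 groups did not overlap, and LGV was the highest. TXNRD1 fell 1.47-fold with glucose without VPA, from 240.1 ± 3.69 to 161 ± 8.14 CPM, a log2 fold change of -0.55 (SE 0.11, FDR 0.00195), and 1.70-fold with VPA, a log2 fold change of -0.77 (SE 0.14, FDR 2.76e-04). With VPA it rose 1.41-fold in LG, to 337 ± 44.8 CPM, a log2 fold change of 0.50 (SE 0.13, FDR 0.00527). In HG the rise was 1.24-fold, a log2 fold change of 0.31 (SE 0.11, FDR 0.0305), and was not called without HG replicate 2 (FDR 0.104), HG replicate 3 (0.120), HGV replicate 1 (0.129) or HGV replicate 3 (0.0638), nor with DESeq2's size factors (0.0516). TXN, the thioredoxin it reduces, was called in no comparison, with means from 134 ± 13.6 CPM in HG to 157 ± 14.5 in LG. TXNIP, which binds and inhibits thioredoxin, had 6.58, 6.21 and 6.31 CPM in LG and 107, 389 and 277 in HG, a log2 fold change of 5.37 (SE 0.33, FDR 6.81e-09), and rose by 5.15 on the log2 scale (FDR 2.83e-14) in HGV against LGV. Of the other thioredoxin reductases, named after their values were seen, the mitochondrial TXNRD2 had a log2 fold change of -1.61 (FDR 3.18e-06) in LGV against LG and -1.40 (FDR 2.25e-06) in HGV against HG, falls where TXNRD1 rose. TXNRD2 was called in neither glucose contrast. TXNRD3 was called lower in both VPA contrasts and higher in both glucose contrasts, each time the reverse of TXNRD1.

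SRXN1, sulfiredoxin, which repairs overoxidised peroxiredoxins, had the fewest reads of the members, 36 to 152 per library. It is annotated at chr20:627259-633844 (minus strand), and 90.6% of its 50-base windows are shared with a readthrough gene not analysed here, so how its reads were assigned is uncertain. Its libraries had 3.85, 2.12 and 2.86 CPM in LG, 1.14, 1.67 and 1.90 in HG, 3.81, 4.71 and 4.06 in LGV and 2.91, 2.57 and 3.44 in HGV. The HG libraries were the 3 lowest of the 12. SRXN1 fell 1.81-fold in HG against LG, a log2 fold change of -0.86 (SE 0.27, FDR 0.0282), and rose 1.88-fold in HGV against HG, a log2 fold change of 0.91 (SE 0.23, FDR 0.00625). The first of these calls was lost without LG replicate 1 (-0.62, FDR 0.180), HG replicate 1 (-0.67, FDR 0.131) or HG replicate 3 (-0.99, FDR 0.0525), and with upper-quartile factors (-0.77, FDR 0.0501) or library size alone (-0.77, FDR 0.0639). LGV against LG gave 0.53 (FDR 0.0906), called without LG replicate 1 at 0.75 (FDR 0.0418). HGV against LGV gave -0.51 (FDR 0.0520), called without LGV replicate 1 at -0.58 (FDR 0.0368) and without HGV replicate 3 at -0.63 (FDR 0.0486).

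HMOX1, the heme oxygenase that is repressed by BACH1 (chr22:35776354-35790207, plus strand), was called in none of the comparisons with TMM factors and all libraries of the groups compared. It had 26.7, 18.1 and 30.1 CPM in LG, 28.8, 30.3 and 31.5 in HG, 28.8, 31.0 and 27.2 in LGV and 34.1, 35.1 and 34.2 in HGV. The second LG library was the lowest, and the 3 HGV libraries stood above the other 9. From HG, at 30.2 ± 1.39 CPM, to HGV, at 34.5 ± 0.528 CPM, the log2 fold change was 0.19 with a 95% interval of -0.03 to 0.41 (FDR 0.149), and from LGV to HGV it was 0.23 with an interval of -0.02 to 0.48 (FDR 0.128). Both were called with library size alone, at 0.31 (FDR 0.0225) and 0.32 (FDR 0.0396), and the second also with upper-quartile factors. HG against LG gave 0.30 (FDR 0.202), called without LG replicate 3 at 0.46 (FDR 0.0407).

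**Figure D3:**
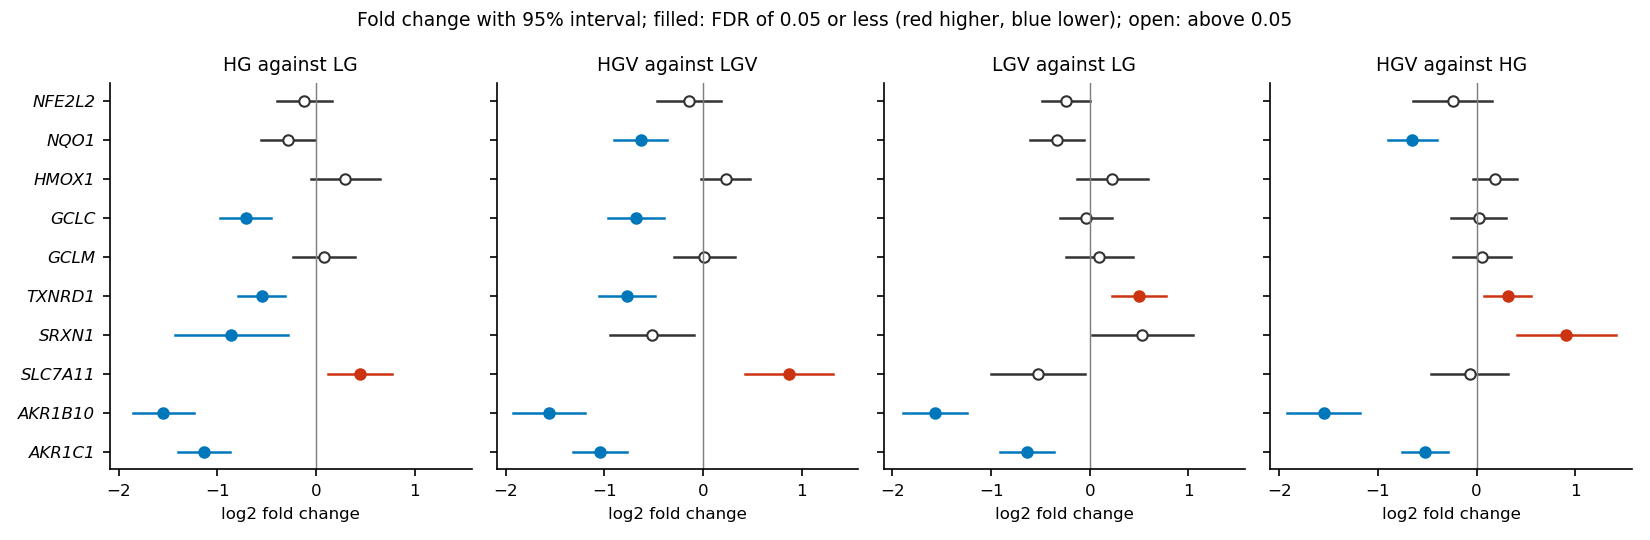
Log2 fold change (x axis) of each of the 10 genes (y axis) in the 4 pairwise comparisons, with its 95% interval; filled points have an FDR of 0.05 or less (red higher, blue lower) and open points do not. AKR1B10 lies between -1.57 and -1.55 in all 4 panels, and TXNRD1 lies left of 0 in both glucose contrasts and right of 0 in both VPA contrasts.

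NFE2L2 itself (chr2:178083395-178257484, minus strand) was called in no comparison. Its libraries had 131, 134 and 134 CPM in LG, 149, 101 and 113 in HG, 117, 100.3 and 118 in LGV and 101, 76.3 and 129.5 in HGV. The LG libraries lay close together, at 133 ± 1.77 CPM, and those of HG and HGV were spread over their range, at 121 ± 24.8 and 102 ± 26.6 CPM. HG against LG gave a log2 fold change of -0.12 with a 95% interval of -0.40 to 0.16 (FDR 0.537), LGV against LG -0.24 with -0.49 to 0.00 (FDR 0.103), and HGV against HG -0.24 with -0.64 to 0.16 (FDR 0.305). These intervals allow falls of NFE2L2 RNA that these libraries could not resolve.

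Genes of the list of NRF2 partners and regulators, which also holds related factors such as NFE2L1 and competitors such as BACH1, were in part called lower in HG. Of 17 partners and regulators 9 were called lower and 0 higher in HG against LG (median -0.39), and 12 lower and 0 higher in HGV against LGV (median -0.54), beside medians of 0.01 for all genes in both. Over all genes tested 12.7% were called lower and 12.0% higher in the first contrast and 19.5% and 21.2% in the second. KEAP1, the sensor that holds NRF2, had 129.7, 129 and 107 CPM in LG, 73.6, 86.1 and 85.6 in HG, 53.5, 55.7 and 58.2 in LGV and 38.3, 39.4 and 35.5 in HGV, so that the 4 groups were separate. It fell with glucose, with a log2 fold change of -0.55 (FDR 0.00435) without VPA and -0.58 (FDR 6.83e-04) with it, and with VPA, at -1.11 (FDR 3.81e-06) in LG and -1.12 (FDR 4.05e-06) in HG. KEAP1 was thus highest in LG and lowest in HGV, as were AKR1B10 and AKR1C1 and, by group means, NQO1 and NFE2L2. The order between differed, since LGV lay below HG for KEAP1, overlapped it for AKR1B10 and lay above it for AKR1C1. SQSTM1, whose protein draws KEAP1 into autophagy and which is itself an NRF2 target, fell with glucose from 294 ± 49.5 to 154 ± 11.7 CPM (log2 fold change -0.91, FDR 1.06e-04), as did the related factor NFE2L1, from 549 ± 122 to 312 ± 9.29 CPM (log2 fold change -0.79, FDR 5.87e-04).

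All small MAF genes were called lower with glucose in both contrasts. MAFG had 229, 262 and 155 CPM in LG and 90.9, 114 and 98.4 in HG, a log2 fold change of -1.07 (SE 0.16, FDR 1.32e-04), and MAFK had 26.5, 25.0 and 17.4 and 10.7, 10.2 and 10.5, a log2 fold change of -1.11 (SE 0.17, FDR 1.56e-04). MAFF, named after its values were seen, had a log2 fold change of -0.56 (FDR 0.0151). LG replicate 3 was the lowest LG library for MAFF, MAFG, MAFK, NFE2L1, SQSTM1 and KEAP1 and still stood above every HG library for each of them. BACH1, the repressor that competes with NRF2, was not called, with 36.8, 40.1 and 33.9 CPM in LG and 34.8, 23.4 and 25.5 in HG (log2 fold change -0.39, FDR 0.0707), but was called lower without LG replicate 3 at -0.44 (FDR 0.0408) and without HG replicate 1 at -0.56 (FDR 0.0213).

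With VPA, 3 of the 17 partners were called higher and 7 lower in HGV against HG (median -0.19), and 2 higher and 5 lower in LGV against LG (median -0.06). Over all genes 25.8% were called higher and 20.2% lower in HGV against HG, and 21.7% and 19.9% in LGV against LG, and with library size alone the partners' counts became 4 and 5 in the former and 5 and 3 in the latter. NFE2L3, a further relative of NRF2, rose from 13.1 ± 1.77 CPM in LG to 29.5 ± 3.86 in LGV (log2 fold change 1.18, FDR 2.54e-05) and from 13.7 ± 1.76 CPM in HG to 34.5 ± 0.862 in HGV (log2 fold change 1.33, FDR 3.04e-06). BACH2, named after its values were seen, rose from 0.289 ± 0.0251 to 3.10 ± 0.792 CPM in HG (log2 fold change 3.41, FDR 1.57e-06). Of the small MAF genes, MAFK was called higher in HGV against HG, from 10.5 ± 0.275 to 14.8 ± 0.380 CPM, and was not called in LGV against LG. MAFF was called in neither VPA contrast. MAFG had log2 fold changes of -0.06 in LG and -0.08 in HG with VPA, neither called.

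**Figure D4:**
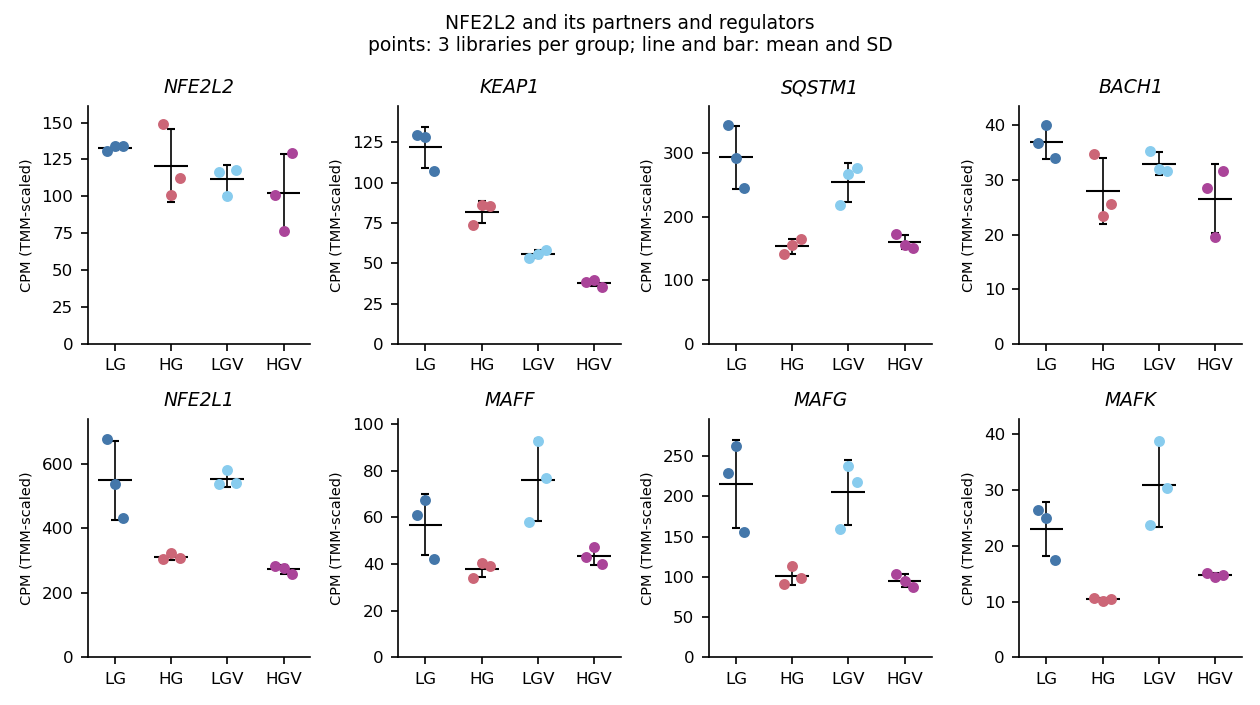
Level in CPM (y axis, linear, from 0) of NFE2L2 and 7 partners and regulators in the libraries of each group (x axis); points are libraries, the line the mean, the bar the SD. NFE2L2 overlaps between LG and HG, KEAP1 steps down from 122 CPM in LG to 37.7 in HGV, and the 3 small MAF genes are lower in HG than in LG.

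Whether VPA acted differently at 5.5 and 20 mM glucose was tested as an interaction over the 12 libraries. By edgeR's quasi-likelihood test 0 of the 10 members were called (0.0427% of 16389 genes were, 4 higher and 3 lower, or 0 and 1 with library size alone), 0 had an unadjusted p under 0.05 (lowest 0.0922, NQO1), and edgeR's likelihood ratio test and DESeq2's Wald test also called 0. The widest 95% intervals of the difference were -0.33 to 1.10 for SRXN1 and -0.19 to 1.13 for SLC7A11.

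Set on one scale by transcript length, the members differed widely in level. In CPM per kilobase of the canonical transcript, AKR1C1 (185 ± 18.3) and NQO1 (183 ± 22.0) stood first in LG and within each other's spread, followed by TXNRD1 (62.2 ± 0.957), NFE2L2 (54.4 ± 0.723), GCLC (42.0 ± 2.58) and AKR1B10 (40.8 ± 7.39), the last pair again within their spread. HMOX1 (16.1 ± 3.97), SLC7A11 (10.5 ± 1.69), GCLM (5.26 ± 0.816) and SRXN1 (1.16 ± 0.344) came after them. In HGV NQO1 was first with 94.2 ± 8.71 CPM per kilobase and AKR1C1 second with 57.8 ± 4.51. AKR1B10, at 4.72 ± 1.16, then stood beside GCLM, at 5.72 ± 0.919, within their spread. The order depends on the length used, since over the union of all annotated exons NFE2L2 ranked 8 in LG in place of 4 and AKR1B10 ranked 3 in place of 6.

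The wider pathway was described with 7 further lists, of which the members are no part. In HG against LG, 6 of 26 genes of glutathione synthesis, recycling and use were called higher and 5 lower (median 0.10), 3 and 3 of 18 thioredoxins and peroxiredoxins (-0.01), 1 and 0 of 4 genes of superoxide and peroxide removal (0.32), 0 and 3 of 12 of NADPH supply (-0.06), 2 and 4 of 18 of quinone and carbonyl reduction (0.01), 1 and 4 of 7 of conjugation and export (-0.49) and 3 and 2 of 16 of iron and heme (-0.08). Most of these lists thus went both ways, where 12.0% of all genes were called higher and 12.7% lower. SOD2, the mitochondrial superoxide dismutase, rose from 356 ± 65.1 to 680.5 ± 16.8 CPM (log2 fold change 0.96, FDR 6.34e-05). UGDH, which makes UDP-glucuronic acid for conjugation, fell from 561 ± 81.4 to 301 ± 32.7 CPM (log2 fold change -0.88, FDR 1.22e-04), and PTGR2, a prostaglandin reductase, rose (log2 fold change 1.15, FDR 0.00482). FTL, the ferritin light chain, fell from 3975 ± 293 to 2640.3 ± 252 CPM (log2 fold change -0.57, FDR 0.00332), PPOX, an enzyme of heme synthesis, rose (log2 fold change 0.85, FDR 0.00399), and FTH1 had a log2 fold change of -0.38 (FDR 0.0572) that was called without LG replicate 3 at -0.49 (FDR 0.00881). MTHFD1L, of mitochondrial folate metabolism, had -0.46 (FDR 0.0180), a call lost without LG replicate 1 (-0.44, FDR 0.0662), LG replicate 2 (-0.30, FDR 0.0991), HG replicate 1 (-0.39, FDR 0.0853) or HG replicate 3 (-0.45, FDR 0.0702). GSR, which recycles oxidised glutathione, was called in none of the pairwise comparisons, with 208 ± 14.5 CPM in LG and 181 ± 12.0 in HG.

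The second glucose contrast, HGV against LGV, gave 8 higher and 4 lower of 26 genes for glutathione (median 0.11), 5 and 2 of 18 for thioredoxins (0.13), 3 and 0 of 4 for superoxide (0.55), 1 and 2 of 12 for NADPH (0.10), 5 and 4 of 18 for quinones (0.07), 1 and 5 of 7 for conjugation (-0.46) and 8 and 1 of 16 for iron and heme (0.28), where 21.2% of all genes were called higher and 19.5% lower. Conjugation and export was called lower in more genes than higher in both glucose contrasts. Within it ABCC2, which exports conjugates into bile, fell with glucose, with log2 fold changes of -0.52 (FDR 0.00416) without VPA and -0.71 (FDR 0.00112) with it, while its relative ABCC3 of the basolateral side had 0.53 (FDR 0.0237) and 0.44 (FDR 0.00594). The former ABCC3 call was lost without LG replicate 2 (0.45, FDR 0.0741), HG replicate 2 (0.32, FDR 0.189) or HG replicate 3 (0.57, FDR 0.0501).

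With VPA, 21.7% of all genes were called higher and 19.9% lower in LGV against LG, and 25.8% and 20.2% in HGV against HG. In LGV against LG the counts were 5 higher and 12 lower of 26 for glutathione (median -0.29), 3 and 9 of 18 for thioredoxins (-0.44), 0 and 1 of 4 for superoxide (-0.05), 1 and 8 of 12 for NADPH (-0.39), 3 and 6 of 18 for quinones (-0.13), 2 and 2 of 7 for conjugation (0.02) and 4 and 4 of 16 for iron and heme (-0.07). With library size alone the glutathione and thioredoxin counts there were 6 and 11 and 3 and 8, those of NADPH 1 and 4, and those of quinones 4 and 4. With this scaling 28.2% of all genes were called higher and 12.3% lower in LGV against LG. In HGV against HG more genes were called higher than lower for iron and heme (8 and 2, median 0.27) and for quinones (6 and 3, 0.14). The reverse held for thioredoxins (2 higher and 9 lower, -0.17), glutathione (5 and 8, -0.13) and NADPH (3 and 6, -0.15), and the counts were even for superoxide (1 and 1, -0.11) and conjugation (2 and 2, -0.04). With library size alone more genes were called higher than lower for glutathione (8 and 6) and NADPH (5 and 4) in this contrast, and thioredoxins had 4 and 7. GSTA1, a glutathione transferase abundant in liver, fell from 18.7 ± 4.40 to 3.46 ± 0.823 CPM (log2 fold change -2.43, FDR 2.14e-06), and SESN3, a sestrin, rose from 2.87 ± 0.378 to 20.4 ± 3.77 CPM (log2 fold change 2.83, FDR 1.15e-07). In LG with VPA, the log2 fold change of GSTA1 was -1.99 (FDR 3.79e-06) and that of SESN3 2.92 (FDR 6.71e-08).

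Peroxide and heme genes also differed with VPA. CAT, catalase, fell with log2 fold changes of -0.67 (FDR 0.00135) in LGV and -0.47 (FDR 0.00223) in HGV, and CCS, the copper chaperone of superoxide dismutase, rose by 0.58 on the log2 scale (FDR 9.36e-04) in HGV, and had -0.02 (FDR 0.939) in LGV. BLVRB, a biliverdin reductase that acts after heme oxygenase, rose from 15.8 ± 2.74 to 53.1 ± 6.55 CPM (log2 fold change 1.74, FDR 1.36e-06). FTL fell in LGV against LG with a log2 fold change of -0.69 (FDR 8.14e-04) and had -0.23 (FDR 0.135) in HGV against HG. In no list was a gene called for the interaction.

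**Figure D5:**
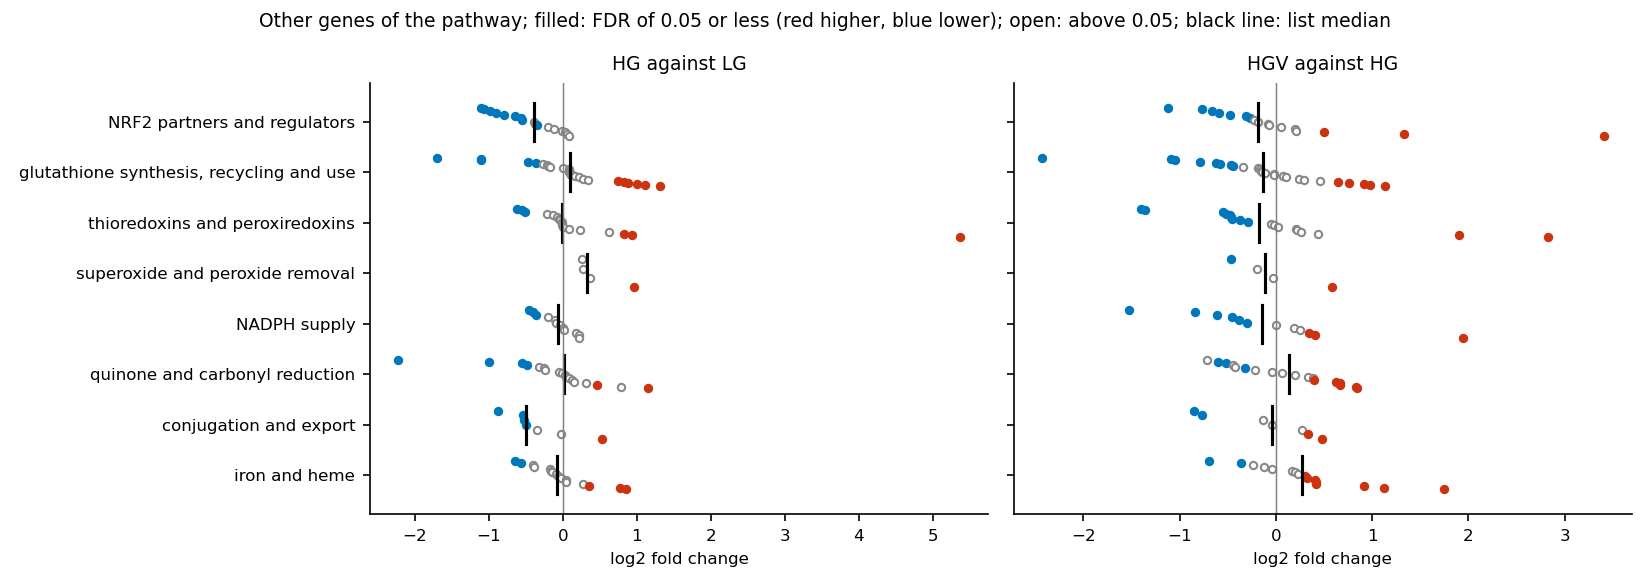
Log2 fold change (x axis) of the genes of the partner list and the 7 further lists (y axis, 1 row per list) in HG against LG (left) and HGV against HG (right); filled points have an FDR of 0.05 or less (red higher, blue lower), open points do not, and the black line is the list's median. In the left panel the partners' median lies at -0.39 with 9 genes called lower and 0 higher, and TXNIP is the point at 5.37.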

How the data were processed

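Poly(A)-selected RNA of 12 HepG2 libraries was sequenced as 50 nt single-end reads with a directional kit. The authors trimmed and aligned the reads to GRCh37 with STAR. They used featureCounts with Ensembl genes and a map quality threshold of 10. They deposited raw counts, not normalized, for genes averaging 10 reads or more, which was checked on the values. Whether counting used strand is not given in the sources used here, so reads of overlapping antisense genes (NFE2L2, GCLC, SLC7A11 and NQO1 have such neighbours) may be mixed. All columns were mapped by their names.

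Genes averaging 10 counts or more in the libraries compared were tested in R 4.3.3 with edgeR 4.0.16 (TMM, quasi-likelihood F test, limma 3.58.1 loaded), per pair of groups, and over all 12 libraries for the interaction. Benjamini-Hochberg FDR was taken over all genes tested. Alternatives were DESeq2 1.42.0 size factors and Wald test, upper-quartile factors, library size alone, edgeR's likelihood ratio test, no filter, 1 CPM in at least 3 libraries, a replicate block, a single fit of all libraries, an FDR of 0.01 and leaving out each library. The test was also tested on simulated counts with 2-fold changes in 200 genes and none in the others. It recovered 77.8% of the changed genes in HG against LG, 81.3% in HGV against HG and 52.3% for the interaction. False calls were 11 of 165, 11 of 172 and 10 of 114. Far more genes than these were called in the pairwise comparisons of the real data, so the recovery there can differ from these rates. Smaller differences would be missed more often. Tables and plots used Python 3.11.15, numpy 2.4.6, pandas 2.3.3 and matplotlib 3.10.9.

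Members, lists and the naming rule were chosen with earlier results of these data known. The rule named the members, 15 fixed genes of the pathway and, per list, the called gene with the largest change among those averaging 1 log2 CPM or more in HG against LG, HGV against HG and LGV against LG. Some genes that meet the rule's terms are not reported here. Other genes named are said to be chosen after their values were seen. GSTP1, SOD3, ME1, ME3, CBR3, ALDH3A1 and UGT1A6 of the lists are not analysed here. Positions and sequences came from GRCh37 and GENCODE v44 lifted to it, which placed 97.47% of the genes by identifier, while the authors counted on an earlier Ensembl annotation. Windows of 50 bases were used to find sequence shared between genes.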

Additional observations from a re-analysis of the deposited data

How the results depend on the processing

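Over 800 values of the members under the alternatives, 712 kept direction and side of the threshold, 17 lost the call, 22 gained it, and 49 values called in neither fit changed sign, while 0 called values changed sign. AKR1B10 and AKR1C1 were called in all alternatives of the 4 pairwise comparisons, as were GCLC and TXNRD1 in both glucose contrasts and NQO1 in both contrasts with HGV. The rises of TXNRD1 in LGV against LG and of SRXN1 in HGV against HG were also called in all alternatives. Members called numbered 4 to 7 in HG against LG when a library was left out (6 with all), 4 to 5 in HGV against HG (5), 3 to 5 in LGV against LG (3) and 6 to 7 in HGV against LGV (6), and 0 throughout for the interaction. In LGV against LG, 5 members were called with edgeR's likelihood ratio test, with DESeq2's Wald test, with the replicate block and without LG replicate 1, NQO1 being among the added ones in each. The shares of all genes called in these fits are not given here, so a change in these counts is not a result about the members. SLC7A11 in HG against LG was also not called with the filter of 1 CPM in at least 3 libraries (0.44, FDR 0.0574) or in one fit of all 12 libraries (0.46, FDR 0.133).

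Whether the replicate numbers pair the libraries could not be settled with 3 libraries per group. Deviations from the group means of libraries with the same number correlated between -0.25 and 0.00 in LG and HG, -0.23 and 0.38 in LG and LGV, -0.22 and 0.31 in HG and HGV, and 0.00 and 0.25 in LGV and HGV, the pairs of groups compared. Between LG and HGV the range was -0.08 to 0.18 and between HG and LGV -0.01 to 0.17. Of the 3 pairs of libraries, 0 exceeded 0.1 in LG and HG, 2 did in HG and HGV and 1 in each of the other pairs of groups. Between 1 and 3 of 6 libraries correlated best with their own number. Mean correlations for the same and for different numbers were 0.11 and -0.06 in HG and HGV and 0.10 and -0.05 in LGV and HGV. They were 0.05 and -0.03 in LG and LGV, 0.09 and -0.04 in HG and LGV, and 0.02 and -0.01 in LG and HGV. In LG and HG they were -0.14 and 0.07, the other way round. Deviations from a group's mean cancel within the group, so the same-number and different-number means take opposite signs largely by construction. They are not separate evidence. With the replicate number as a block, 6 members were called in HG against LG, 5 in HGV against HG, 5 in LGV against LG and 7 in HGV against LGV. The shares of all genes called with this block are not given here. SLC7A11 in LGV against LG was then -0.59 (FDR 0.00299), NQO1 -0.33 (FDR 0.0360), and SRXN1 in HGV against LGV -0.52 (FDR 0.0459). For the other named genes, 2261 of 2400 values kept direction and side, 19 lost a call and 28 gained one. SRXN1 (36 to 152 reads) is the member whose depth limits the comparison most. Adding the counts of AKR1C2 to AKR1C1 and of AKR1B15 to AKR1B10 was chosen after seeing the data and changed no call. The member was the larger part of each sum, so these sums cannot show how shared reads were assigned.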
